A study of Mus musculus with 7 samples.

Results

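The genes described here are 8 members of the insulin-like growth factor (IGF) system: the secreted IGF binding proteins Igfbp2, Igfbp3, Igfbp4, Igfbp5, Igfbp6 and Igfbp7, the ligand Igf1 and the receptor Igf1r. They were taken by symbol from the 29267 genes of the tables, and all 8 were found. RNA-seq was available as 1 library for each of 7 mouse cell populations. Mouse embryonic fibroblasts (MEFs) of the OG2 line, which carry an egfp reporter under the Oct4 promoter and its distal enhancer, had been infected with retroviruses for Oct4, Sox2, Klf4 and c-Myc and kept in mES medium, which contains serum, or in 5C medium, a serum-free mixture of N2, bFGF, vitamin C, LIF and β-mercaptoethanol in DMEM/F12. Sorting on the reporter at the end of reprogramming gave mES-Oct4GFP+ and mES-Oct4GFP- cells from the first medium and 5C-Oct4GFP+ and 5C-Oct4GFP- cells from the second, all at passage 0. The 5C-Oct4GFP+ cells were also moved to naïve medium, with LIF and the inhibitors CHIR99021 and PD0325901, or to primed medium, with bFGF and activin A. They are listed at passage 20 as 5C-Oct4GFP+ (naive) and 5C-Oct4GFP+ (primed). A figure legend of the study instead describes only a few days in these media. R1 ESCs-primed, also at passage 20, are primed stem cells made from the R1 embryonic stem cell line, not by reprogramming. Their primed state was induced on MEF feeder cells. The methods then give maintenance on a serum (FBS) coating, with CHIR99021 and IWR-1 in place of bFGF and activin A. Libraries of the starting MEFs and of R1 ESCs in naïve medium were not analysed here.

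IGF1 and IGF2 signal through IGF1R, a receptor tyrosine kinase that acts through IRS adaptors, PI3K and AKT, while IGF2R takes up IGF2 for breakdown. IGFBPs hold the ligands outside the cell and set how much of them reaches the receptor, and proteases release the ligands again. IGFBP7 binds IGFs weakly compared with the others and is often called an IGFBP-related protein. In culture, fibroblasts are a well-known source of several IGFBPs, and insulin, which at high doses also acts on IGF1R, is a component of the N2 supplement.

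With 1 library per population there is no replicate error, so no test was made and no difference can be set against biological variation. Levels are in TPM, the abundance of a transcript relative to all transcripts of its library, corrected for its length. A gene is called apart when its log2(TPM + 1) differed by at least 1, which is 2-fold, and it reached 1 TPM in either library. Ratios of TPM carry an exact 95% Clopper-Pearson interval from the read counts, which covers counting error only. Total estimated counts ran from 6108252 to 11496615 per library. The labels were compared with marker genes. All 3 libraries of mES-Oct4GFP+, 5C-Oct4GFP+ and 5C-Oct4GFP+ (naive) cells held Nanog at 253 TPM or above and Zfp42 at 219 TPM or above, against at most 131 TPM and 14.1 TPM in the others. Fgf5, a primed marker, was at 175 and 139 TPM in the 5C-Oct4GFP+ (primed) and R1 ESCs-primed libraries. Pou5f1 was highest in mES-Oct4GFP- cells, at 3640 TPM, where Nanog was at 17.1 TPM and Zfp42 at 1.31 TPM. Retroviral and endogenous Oct4 were not separated here. A list of 12 fibroblast markers, Col1a1 and Dcn among them, summed to 20.4 to 43.4 TPM in the mES-Oct4GFP+, 5C-Oct4GFP+ and 5C-Oct4GFP+ (naive) libraries. It summed to 751 TPM in mES-Oct4GFP- cells, 533 TPM in 5C-Oct4GFP- cells, 284 TPM in R1 ESCs-primed cells and 104 TPM in 5C-Oct4GFP+ (primed) cells. In these bulk libraries, fewer cells of a type and less RNA per cell cannot be told apart.

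The upstream regions of 4 binding proteins are shown first because Igfbp2 and Igfbp7 were high in 5C-Oct4GFP+ cells where Igfbp3 and Igfbp4 were low. Each is the 250 bases before the RefSeq start site (build GRCm38.p6), written 5′ to 3′ on the gene's strand, and capitals mark matches to the motifs searched on both strands. These motifs were TATAAA (the TATA box), ACGTG (the core of hypoxia response elements), CAGGTG (an E-box read by Snail and Zeb factors) and TGANTCA. The last is a loose form of the AP-1 site, in which N is any base. No 2 of these motifs overlapped in these windows, apart from ACGTG with itself on the opposite strand.
Igfbp2, chr1:72824230-72824479, plus strand: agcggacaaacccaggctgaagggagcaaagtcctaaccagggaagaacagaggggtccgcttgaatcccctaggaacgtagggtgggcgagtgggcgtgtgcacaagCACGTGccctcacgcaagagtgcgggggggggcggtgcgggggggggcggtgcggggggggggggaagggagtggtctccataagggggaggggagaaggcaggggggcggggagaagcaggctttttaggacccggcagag
Igfbp7, chr5:77408046-77408295, minus strand: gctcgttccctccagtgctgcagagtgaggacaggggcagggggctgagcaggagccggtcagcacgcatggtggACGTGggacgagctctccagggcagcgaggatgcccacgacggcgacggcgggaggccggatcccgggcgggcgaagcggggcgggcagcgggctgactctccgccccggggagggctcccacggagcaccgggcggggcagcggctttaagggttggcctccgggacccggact
Igfbp3, chr11:7213924-7214173, minus strand: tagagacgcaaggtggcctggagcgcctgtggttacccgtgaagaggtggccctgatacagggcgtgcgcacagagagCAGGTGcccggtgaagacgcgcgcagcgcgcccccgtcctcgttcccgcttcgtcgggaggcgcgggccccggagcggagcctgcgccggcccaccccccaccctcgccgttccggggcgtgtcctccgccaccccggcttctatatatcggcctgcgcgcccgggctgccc
Igfbp4, chr11:99040994-99041243, plus strand: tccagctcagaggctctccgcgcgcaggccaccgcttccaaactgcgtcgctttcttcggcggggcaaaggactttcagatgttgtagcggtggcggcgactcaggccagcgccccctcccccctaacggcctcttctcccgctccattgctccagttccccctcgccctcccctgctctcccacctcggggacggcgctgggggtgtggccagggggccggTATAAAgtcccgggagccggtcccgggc

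In these 4 windows, Igfbp2 and Igfbp7 held ACGTG, in Igfbp2 as the palindrome CACGTG at position -142 and in Igfbp7 at -175, counted back from the start site to the motif's first base. Igfbp3 held CAGGTG at -172 and Igfbp4 held TATAAA at -28. Over the same 250 bases of all 32851 RefSeq promoters, ACGTG was found in 16.6%, CAGGTG in 17.2%, TATAAA in 12.4% and TGANTCA in 6.75%. Each is therefore a common match, and a match describes letters, not a site in use. G and C made up 67.2% of the Igfbp2 window, 74% of Igfbp7, 73.2% of Igfbp3 and 69.2% of Igfbp4, against a median of 52.4% over all promoters. Of the other members, Igf1 held TGANTCA (as TGAATCA), Igfbp6 held TATAAA on the opposite strand, and the windows of Igfbp5 and Igf1r held none of the 4 motifs. The Igf1 start site used lies 2846 bases from the annotated gene start. A second Igfbp2 start site, 884 bases into the annotated gene, held TGANTCA at -39.

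Igfbp2 was the most abundant member in every library and made up most of the binding-protein transcripts in 6 of the 7. Igfbp2 binds both IGFs and is common in embryonic tissue. Its level was 128 TPM in mES-Oct4GFP+ and 148 TPM in 5C-Oct4GFP+ (naive) cells, then 586 TPM in 5C-Oct4GFP+ (primed), 655 TPM in mES-Oct4GFP-, 673 TPM in R1 ESCs-primed, 831 TPM in 5C-Oct4GFP+ and, as the maximum, 918 TPM in 5C-Oct4GFP- cells. The libraries thus fell into a low pair and a high set of 5, and the step between them, from 5C-Oct4GFP+ (naive) to 5C-Oct4GFP+ (primed), was 3.96-fold (95% interval 3.68 to 4.26). Within the high set, R1 ESCs-primed and mES-Oct4GFP- cells did not differ beyond counting error (ratio 1.03, interval 0.979 to 1.08). Ranked by TPM among all 29267 genes, Igfbp2 stood at position 111 in 5C-Oct4GFP- cells and at 1501 in mES-Oct4GFP+ cells.

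Igfbp3, the main carrier of IGFs in serum, was high in a different set of libraries. It was at 469 TPM in mES-Oct4GFP- cells, 239.9 TPM in 5C-Oct4GFP+ (primed), 169 TPM in R1 ESCs-primed and 58.4 TPM in 5C-Oct4GFP- cells. In mES-Oct4GFP+, 5C-Oct4GFP+ and 5C-Oct4GFP+ (naive) cells it was at 10.2, 9.47 and 8.12 TPM. Neighbours among these last 3 libraries did not differ beyond counting error, with ratios of 1.08 (interval 0.802 to 1.44) and 1.17 (interval 0.884 to 1.55). Igfbp3 was thus low in 5C-Oct4GFP+ cells and high in the line moved from them to primed medium.

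Igfbp4, which holds IGFs back and is cut by the protease PAPP-A, was ordered much like Igfbp3. Its level was 134 TPM in mES-Oct4GFP-, 61.7 TPM in R1 ESCs-primed, 27.8 TPM in 5C-Oct4GFP- cells and 19.9 TPM in 5C-Oct4GFP+ (primed) cells. It was at 4.08 TPM in 5C-Oct4GFP+, 1.66 TPM in 5C-Oct4GFP+ (naive) and 1.25 TPM in mES-Oct4GFP+ cells, and the last 2 did not differ beyond counting error (ratio 1.33, interval 0.671 to 2.52). The effective length assigned to Igfbp4 ran from 2041 to 3758 bases between libraries, because the estimated counts were spread over its 6 transcripts in different proportions, so its TPM also moves with isoform assignment.

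Igfbp5, which binds to extracellular matrix, and Igfbp6, which prefers IGF2, were both high in Oct4GFP- cells. Igfbp5 was at 94.9 TPM in 5C-Oct4GFP-, 85.1 TPM in R1 ESCs-primed and 67.1 TPM in mES-Oct4GFP- cells. It was at 6.88 TPM in 5C-Oct4GFP+ (primed), 4.07 TPM in 5C-Oct4GFP+, 1.5 TPM in 5C-Oct4GFP+ (naive) and 1.19 TPM in mES-Oct4GFP+ cells. The 2 primed libraries therefore stood on opposite sides of the gap in Igfbp5. Igfbp6 was at 43 TPM in mES-Oct4GFP- and 17.6 TPM in 5C-Oct4GFP- cells and at 1.5 TPM or less in the other 5, where it had 1 to 7 counts and no neighbours differed beyond counting error.

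Igfbp7 was the only member with its highest level in Oct4GFP+ cells. It was at 107 TPM in 5C-Oct4GFP+, 83.5 TPM in 5C-Oct4GFP-, 35.7 TPM in mES-Oct4GFP-, 14.4 TPM in R1 ESCs-primed and 6.83 TPM in 5C-Oct4GFP+ (primed) cells. In 5C-Oct4GFP+ (naive) and mES-Oct4GFP+ cells it was at 2.63 and 1.72 TPM, from 13 and 6 counts, which did not differ beyond counting error (ratio 1.53, interval 0.542 to 4.90). Both libraries grown in 5C medium were above all 5 others.

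**Figure D1:**
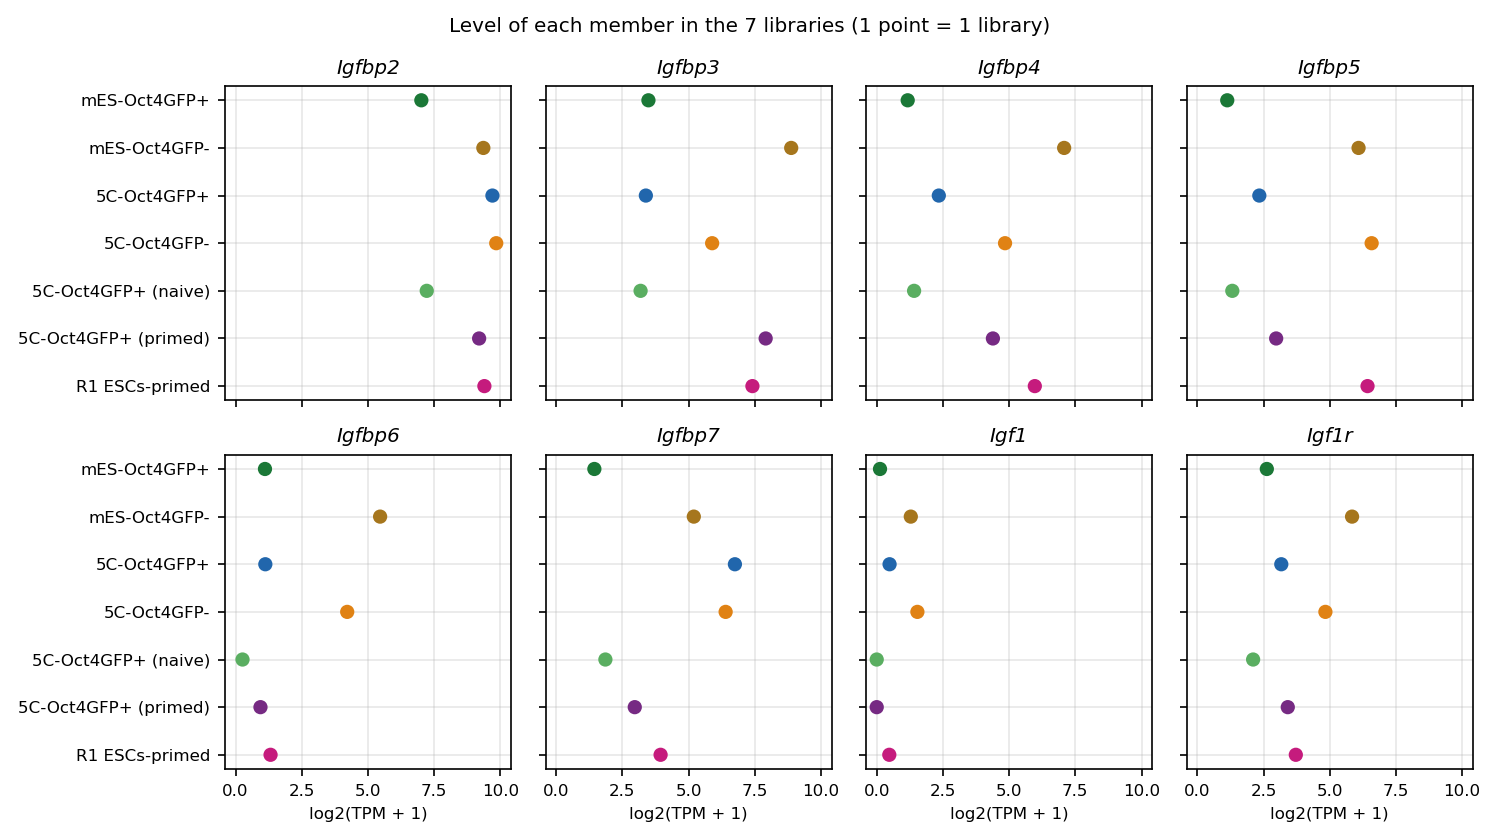
Each panel plots 1 gene, with log2(TPM + 1) on the horizontal axis and the 7 libraries as rows, 1 point for each library. Igfbp2 is high in all libraries but mES-Oct4GFP+ and 5C-Oct4GFP+ (naive), Igfbp3 to Igfbp6 and Igf1r are highest in an Oct4GFP- library, and Igfbp7 peaks at 107 TPM in 5C-Oct4GFP+ cells.

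Igf1 was close to absent. It had 25 counts in mES-Oct4GFP-, 19 in 5C-Oct4GFP-, 10 in R1 ESCs-primed, 3 in 5C-Oct4GFP+ cells, 2 in mES-Oct4GFP+ cells, and 0 in both libraries converted from 5C-Oct4GFP+ cells. Its highest level was 1.9 TPM, in 5C-Oct4GFP- cells. Taking 3 counts as the limit that a count of 0 allows per library, CPM (counts scaled to the library's total, without length) in mES-Oct4GFP- cells, with the 25 counts taken as they stand, was at least 10.9-fold higher than in 5C-Oct4GFP+ (primed) and at least 7.78-fold higher than in 5C-Oct4GFP+ (naive) cells. The effective length assigned to Igf1 ran from 1302 to 6979 bases over its 8 transcripts, so its TPM values are uncertain beyond counting error.

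Igf1r, the receptor, was detected in all 7 libraries with 69 or more counts. It was at 56.5 TPM in mES-Oct4GFP- cells, 27.6 TPM in 5C-Oct4GFP-, 12.2 TPM in R1 ESCs-primed, 9.68 TPM in 5C-Oct4GFP+ (primed), 8.01 TPM in 5C-Oct4GFP+, 5.17 TPM in mES-Oct4GFP+ and 3.31 TPM in 5C-Oct4GFP+ (naive) cells. All neighbours in this order had an interval without 1, the closest being 5C-Oct4GFP+ (primed) over 5C-Oct4GFP+ cells at 1.21 (interval 1.003 to 1.46). The span of 17.1-fold was narrower than that of Igfbp3 (57.8-fold), Igfbp4 (107-fold), Igfbp5 (79.8-fold) or Igfbp7 (62-fold) and wider than that of Igfbp2 (7.15-fold), as ratios of TPM.

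Summed TPM of the 6 binding proteins came to 144 in mES-Oct4GFP+ cells, 162 in 5C-Oct4GFP+ (naive) cells and 861 to 1404 in the other 5. Igfbp2 supplied 89.2% and 91.3% of the sum in the low pair and 86.9% in 5C-Oct4GFP+ cells. In 5C-Oct4GFP+ cells most of the rest was Igfbp7 (11.2%), with Igfbp3 at 0.99%. In mES-Oct4GFP- cells Igfbp2 supplied 46.6% and Igfbp3 33.4%. The 2 primed libraries were close in the share of Igfbp2 (68.1% and, for R1 ESCs-primed, 67%) and differed in Igfbp3 (27.9% and 16.8%) and Igfbp5 (0.799% and 8.47%). The sum without Igfbp2 was 15.5 TPM in mES-Oct4GFP+ cells, 14.1 TPM in 5C-Oct4GFP+ (naive) and 125.5 TPM in 5C-Oct4GFP+ cells.

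**Figure D2:**
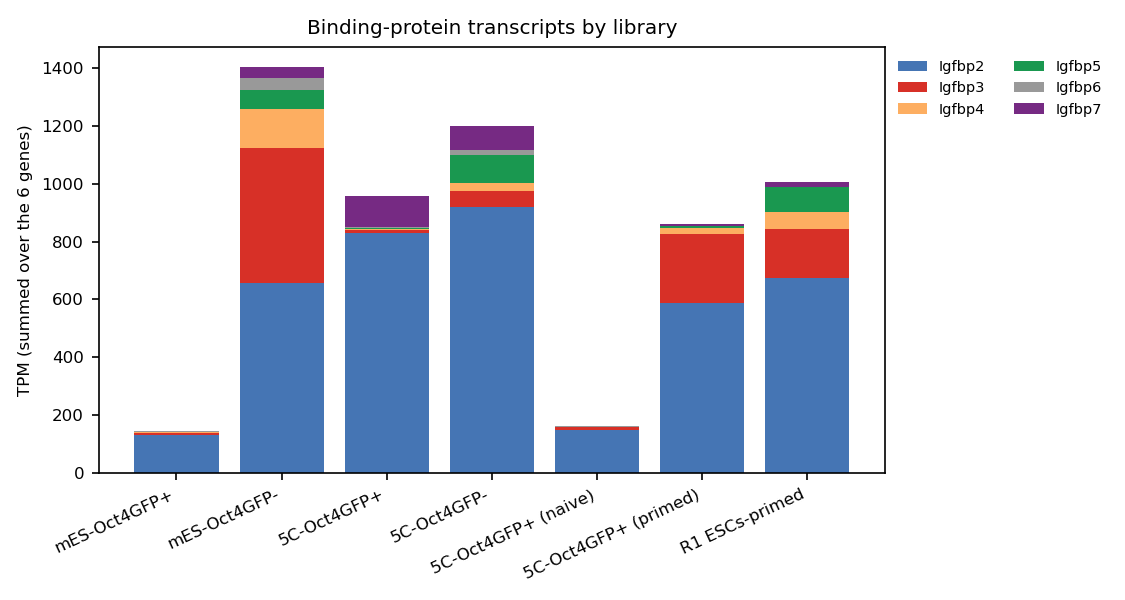
Bars give the TPM of the 6 binding proteins stacked by gene (vertical axis, linear from 0) in each of the 7 libraries, with no error bars because each population has 1 library. The mES-Oct4GFP+ and 5C-Oct4GFP+ (naive) bars, at 144 and 162 TPM, are the short ones. After Igfbp2 the thickest layer is Igfbp3 in the mES-Oct4GFP- and primed libraries but Igfbp7 in 5C-Oct4GFP+ cells.

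The effect of the medium in the reporter-positive cells was asked by comparing 5C-Oct4GFP+ with mES-Oct4GFP+ cells. Igfbp7 was 62.0-fold higher in TPM (interval 28.3 to 170), from 640 counts against 6, and Igfbp2 was 6.47-fold higher (interval 5.92 to 7.09). Igfbp4 and Igfbp5 were 3.26-fold (interval 1.86 to 5.87) and 3.42-fold higher (interval 2.19 to 5.57), both from near 1 TPM. Igfbp3 differed by less than counting error (0.928, interval 0.696 to 1.25), and Igfbp6 and Igf1 had too few counts to show a difference of this size, with intervals from 0.26 to 4.75 and from 0.537 to 56.2. Igf1r was 1.55-fold higher (interval 1.18 to 2.05), under the 2-fold limit. Of the 8 members, 7 reached 1 TPM, 4 of them at least 2-fold higher and 0 lower, against 13.7% of the 15196 genes tested higher and 13.5% lower. The count fell to 2 when FPKM values were used or when 5 TPM were asked for, and the 2 were Igfbp2 and Igfbp7. The fibroblast markers summed to 43.4 TPM in the former and 20.8 TPM in the latter, with Col1a1 at 1.5 and 4.05 TPM. Of other marker lists, 4 of 5 smooth muscle, 3 of 6 primed pluripotent, 3 of 5 epithelial and 3 of 5 endothelial markers were higher in 5C-Oct4GFP+ cells. On the primed pluripotent list 1 marker, T, was lower (0.24 against 6.93 TPM). The part of these lists in the differences was not tested.

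In the reporter-negative cells the medium went with another set of members. Against mES-Oct4GFP- cells, 5C-Oct4GFP- cells had 8.04-fold lower Igfbp3 (interval 7.37 to 8.78), 4.83-fold lower Igfbp4 (interval 4.21 to 5.56), 2.44-fold lower Igfbp6 (interval 1.87 to 3.22) and 2.05-fold lower Igf1r (interval 1.84 to 2.28). Igfbp7 was 2.34-fold higher (interval 1.94 to 2.82). Igfbp2 and Igfbp5 were each about 1.4-fold higher, at 1.40 (interval 1.34 to 1.47) and 1.41 (interval 1.33 to 1.5). Igf1 did not differ beyond counting error (1.32, interval 0.684 to 2.49). That made 1 of 8 members higher and 4 lower, where 9.68% and 10.1% of 15859 genes were, and Igf1r passed the limit narrowly, at -1.01 on the log2 scale. The fibroblast markers summed to 533 TPM with 5C medium and 751 TPM with mES medium, and 7 of the 12 were lower and 1 higher, with a median of -1.28 on the log2 scale (Col1a1 at 45 and 160 TPM). All 6 primitive endoderm markers were lower (19.6 against 172 TPM in sum, median -2.16), as were 3 of 5 epithelial, 3 of 5 endothelial and 2 of 4 blood markers. The part of such cells in the differences was not tested.

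The sorted fractions were further apart in mES than in 5C medium. This held over all genes tested too, of which 46.7% were at least 2-fold apart in mES and 31% in 5C medium. All 8 members were called lower in mES-Oct4GFP+ than in mES-Oct4GFP- cells, where 28.8% of 16294 genes were lower and 17.9% higher. Igfbp4 was 107-fold lower (interval 64.3 to 184), Igfbp5 56.4-fold (interval 37.4 to 89.0), Igfbp3 46.0-fold (interval 36.8 to 58.2), Igfbp6 37.1-fold (interval 14.3 to 138) and Igfbp7 20.8-fold (interval 9.33 to 57.4). Igf1r was 10.9-fold lower (interval 8.65 to 14.0) and Igfbp2 5.1-fold lower (interval 4.65 to 5.6). Igf1 rested on 2 counts against 25, a TPM ratio of 0.0625 with an interval from 0.00685 to 0.239. With FPKM values or a minimum of 5 TPM it was not called, which left 7 members. The median difference of the 8 members was -4.05 on the log2 scale, against -0.15 over all genes tested. In 5C medium the corresponding medians were -2.08 and -0.25. All 12 fibroblast, 6 primitive endoderm and 5 endothelial markers were lower in mES-Oct4GFP+ cells too, with Pdgfra on both of the first lists. Of the 5 epithelial markers 3 were lower and 1 higher, and of the 6 primed pluripotent markers 4 were lower and 1 higher. Of the 8 pluripotent markers 6 were higher and 1 lower.

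In 5C medium the members split. Igfbp5 was 23.3-fold lower in 5C-Oct4GFP+ than in 5C-Oct4GFP- cells (interval 19.6 to 27.9), Igfbp6 14.9-fold (interval 6.90 to 38.3), Igfbp4 6.80-fold (interval 5.26 to 8.82), Igfbp3 6.16-fold (interval 5.07 to 7.52) and Igf1r 3.44-fold lower (interval 2.92 to 4.07). Igf1, with 3 counts against 19, had a TPM ratio of 0.21 (interval 0.0404 to 0.724). Igfbp2 and Igfbp7 stayed close between the fractions. Igfbp2 was 1.11-fold lower in 5C-Oct4GFP+ cells (interval 1.06 to 1.15), a gap that median-ratio rescaling of the libraries takes to the other side of 0 (-0.14 to 0.01 on the log2 scale), and Igfbp7 was 1.28-fold higher (interval 1.12 to 1.46). In all, 6 of 8 members were lower and 0 higher, against 22.6% of 15675 genes lower and 8.45% higher. The count fell to 5, without Igf1, with FPKM values, with median-ratio rescaling or with a minimum of 5 TPM. Without the length correction the log2 difference of Igfbp4 was -1.77 instead of -2.50. The fibroblast markers summed to 751 and 533 TPM in the Oct4GFP- libraries and to 20.8 and 43.4 TPM in the Oct4GFP+ ones, mES medium first, and in 5C medium 10 of the 12 and 3 of 6 primitive endoderm markers were lower in Oct4GFP+ cells. The part of such cells in these differences was not tested.

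**Figure D3:**
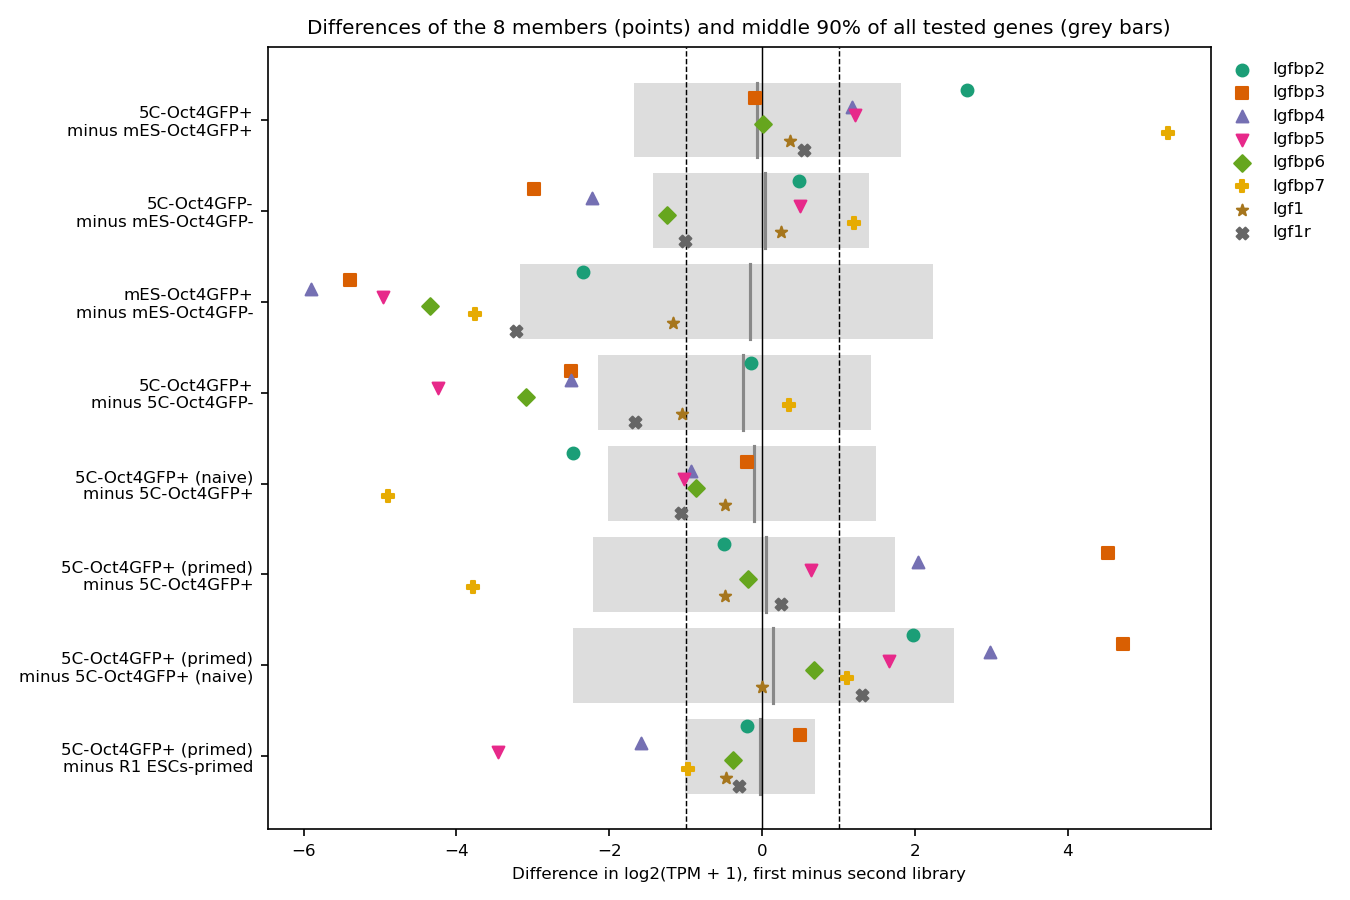
The horizontal axis is the difference in log2(TPM + 1), first minus second library, for the 8 comparisons in rows. Points are the 8 genes, grey bars span the middle 90% of all genes tested with their median as a line, and dashed lines mark 2-fold. Igfbp7 lies at 5.31 in the first row, outside the grey bar, and Igfbp3 at 4.52 and 4.72 in the primed rows against 5C-Oct4GFP+ and 5C-Oct4GFP+ (naive) cells.

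Transfer of 5C-Oct4GFP+ cells to naïve medium went with low binding-protein levels. Igfbp7 was 40.6-fold lower in 5C-Oct4GFP+ (naive) than in 5C-Oct4GFP+ cells (interval 23.6 to 76.7), with 13 counts against 640, and Igfbp2 was 5.61-fold lower (interval 5.22 to 6.03). Igfbp5 was 2.71-fold lower (interval 1.91 to 3.94), Igf1r 2.42-fold (interval 1.83 to 3.23) and Igfbp4 2.46-fold (interval 1.62 to 3.97). On the log2(TPM + 1) scale Igfbp5 (-1.02) and Igf1r (-1.06) were just past the 2-fold limit and Igfbp4 (-0.93) just short of it. Igfbp3 did not differ beyond counting error (0.857, interval 0.646 to 1.13), nor did Igfbp6 with 1 count against 7. Of the 8 members, 7 reached 1 TPM, 4 of them called lower and 0 higher, against 17.5% and 10% of the 14863 genes tested. Only Igfbp2 and Igfbp7 were called on FPKM values. The fibroblast markers were low in both libraries (20.4 and 43.4 TPM in sum, Fbln2 alone at 3.72 and 32.1 TPM), with 1 marker higher and 2 lower. In 5C-Oct4GFP+ (naive) cells 4 of 5 smooth muscle, 3 of 6 primed pluripotent, 3 of 5 epithelial and 3 of 5 endothelial markers were lower. On the primed pluripotent list 1 marker, T, was higher there (14.5 against 0.24 TPM).

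In the line moved to primed medium, Igfbp2 was still high, Igfbp3 was higher and Igfbp7 lower. The 5C-Oct4GFP+ cells were listed at passage 0 and both converted lines at passage 20, so medium and passage cannot be told apart in either conversion. In 5C-Oct4GFP+ (primed) cells Igfbp3 was 25.3-fold higher than in 5C-Oct4GFP+ cells (interval 21.2 to 30.5), from 3495 against 127 counts, and Igfbp4 was 4.88-fold higher (interval 3.8 to 6.28). The log2 difference of Igfbp4 was 1.64 in CPM, without the length correction, and 2.04 in TPM. Igfbp7 was 15.6-fold lower (interval 11.5 to 21.6). Igfbp2 was 1.42-fold lower (interval 1.36 to 1.47), Igfbp5 1.69-fold higher (interval 1.37 to 2.09) and Igf1r 1.21-fold higher, and these 3 were not called. Of the 7 members that reached 1 TPM, 2 were thus higher and 1 lower, against 13.7% and 16.1% of the 15067 genes tested. Of the 12 fibroblast markers 10 were higher and 0 lower (104 against 43.4 TPM in sum). Of the 6 primitive endoderm markers 5 were higher and 0 lower (103 against 3.4 TPM in sum), Gata6 at 28.8 against 0.56 TPM and Sox17 at 60.4 against 0.59 TPM, and 3 of 5 epithelial markers were higher. Of the 6 primed pluripotent markers 3 were higher and 0 lower. Of the 8 pluripotent markers 0 were higher and 5 lower, and 3 of 5 endothelial markers were lower. The part of these markers' cells in the Igfbp3 difference was not tested.

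The 2 converted lines, of common origin and equal listed passage, differed in 6 of the 8 members, all higher in 5C-Oct4GFP+ (primed) cells. These 6 were all the members that reached 1 TPM in either line. Igfbp3 was 29.6-fold higher than in 5C-Oct4GFP+ (naive) cells (interval 24.0 to 36.9), Igfbp4 12-fold (interval 8.32 to 18.5), Igfbp5 4.59-fold (interval 3.31 to 6.53) and Igfbp2 3.96-fold higher. Igf1r was 2.92-fold (interval 2.24 to 3.87) and Igfbp7 2.60-fold higher (interval 1.38 to 5.25). Igfbp6 had 6 counts against 1, a ratio of 4.6 (interval 0.546 to 207), and Igf1 had 0 in both. Over all 15249 genes tested, 22.2% were higher and 16.7% lower. Of the 6 primed pluripotent markers 5 were higher in 5C-Oct4GFP+ (primed) cells and 0 lower, with a median of 5.71 on the log2 scale. Of the 8 pluripotent markers 2 were higher and 5 lower. Of the other marker lists, 9 of 12 fibroblast, 4 of 6 primitive endoderm, 4 of 5 smooth muscle and 3 of 5 epithelial markers were higher. On the fibroblast list 1 marker, Lum, was lower (2.7 against 6.98 TPM). The part of these lists was not tested. These 3 comparisons share libraries, so their values are not independent of each other.

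Between the primed libraries, Igfbp2, Igf1r and Igfbp3 were close and Igfbp5 and Igfbp4 were called apart. In 5C-Oct4GFP+ (primed) cells relative to R1 ESCs-primed cells, Igfbp2 was 1.15-fold lower (interval 1.1 to 1.20), Igf1r 1.26-fold lower (interval 1.04 to 1.51) and Igfbp3 1.42-fold higher (interval 1.33 to 1.51). Igfbp6, with 6 counts in each, could not be placed (ratio 0.613, interval 0.164 to 2.29). Igfbp5 was 12.4-fold lower (interval 10.8 to 14.1), Igfbp4 3.10-fold lower (interval 2.69 to 3.57) and Igfbp7 2.11-fold lower (interval 1.40 to 3.18), the last at -0.98 on the log2 scale and so just short of the limit. Igf1 had 0 counts against 10, with an upper bound of 0.96 on the TPM ratio. Of the 7 members that reached 1 TPM, 0 were called higher and 2 lower, where 2.3% of the 14600 genes tested were higher and 5.09% lower. Of the 12 fibroblast markers, 10 were also lower and 0 higher (104 against 284 TPM in sum, Col1a1 at 13.3 and 40.5 TPM). The study's methods name MEF feeders for inducing the primed state of R1 ESCs, and an FBS coating without feeders named for maintaining it. The part of fibroblast RNA in these differences was not tested.

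Beside the mean log2(TPM + 1) of the fibroblast markers, the members differed in how they followed it over the 7 libraries. As a description across libraries that share sorting gates, media and origin, Pearson's r was 0.97 for Igfbp4, 0.95 for Igfbp5, 0.9 for Igf1r, 0.88 for Igfbp3 and 0.8 for Igfbp6. It was 0.74 for Igf1, 0.63 for Igfbp2 and 0.43 for Igfbp7. With the mean of the 8 pluripotent markers r was -0.97 for Igfbp3 and -0.88 for Igfbp4, and between -0.15 (Igfbp7) and -0.76 (Igf1r) for the others. With the mean of the 6 primed markers it was 0.75 for Igfbp3, 0.67 for Igfbp4 and 0.66 for Igfbp2, and 0.55 or less for the others. The mean fibroblast marker level was close in 5C-Oct4GFP+ (1.15), mES-Oct4GFP+ (1.18) and 5C-Oct4GFP+ (naive) cells (1.18). By summed TPM it was higher in 5C-Oct4GFP+ cells, at 43.4 against 20.8 and 20.4, of which Fbln2 alone gave 32.1, 5.35 and 3.72. The 5C-Oct4GFP+ library held the second highest Igfbp2 and the highest Igfbp7. The part of fibroblast RNA in these levels was not tested. Igfbp3 and Igfbp4 were the most alike pair among the binding proteins (r = 0.93), Igfbp6 and Igf1r the most alike of all (r = 0.95), and Igfbp3 and Igfbp7 the least (r = 0.21).

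**Figure D4:**
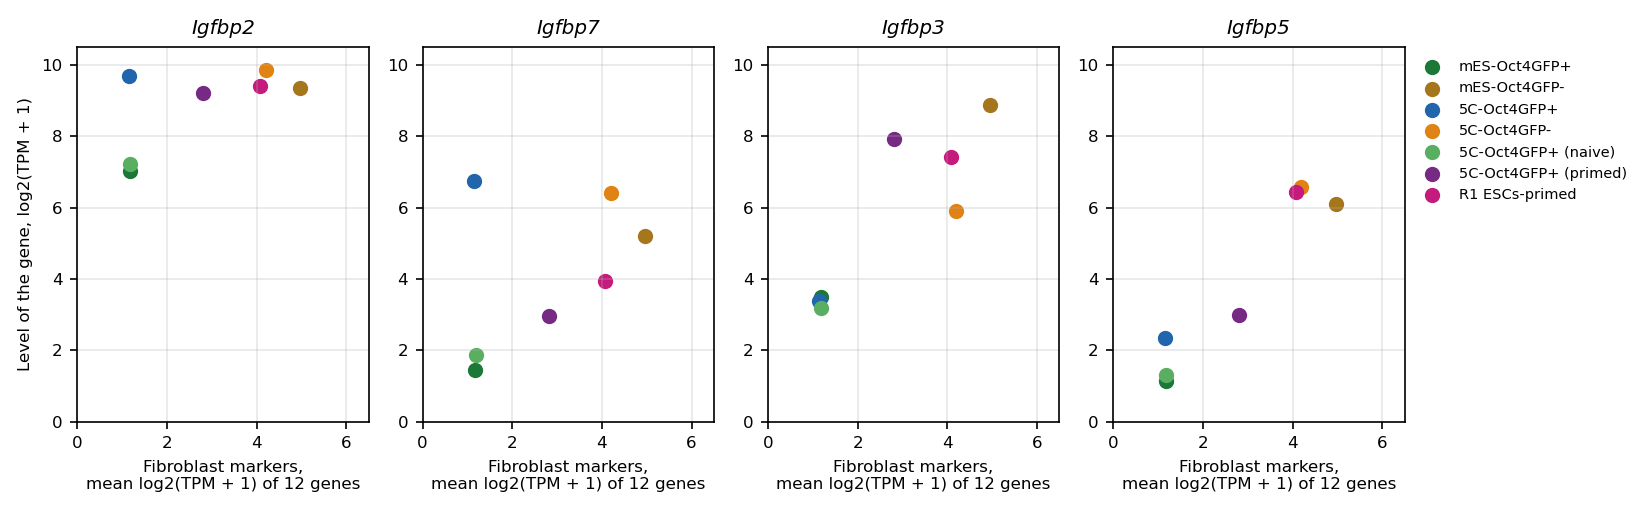
The horizontal axis is the mean log2(TPM + 1) of 12 fibroblast markers and the vertical axis the log2(TPM + 1) of 1 gene per panel, with 1 point for each of the 7 libraries. The 5C-Oct4GFP+ point lies at a marker mean of 1.15, beside the mES-Oct4GFP+ and 5C-Oct4GFP+ (naive) points in the Igfbp3 panel but far above them in the Igfbp2 and Igfbp7 panels. The part of fibroblast RNA in these levels was not tested.

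Some members are genome neighbours. Igfbp2 (ENSMUSG00000039323, chr1:72824503-72852474, plus strand) and Igfbp5 (ENSMUSG00000026185, chr1:72857932-72874884, minus strand) end 5457 bases apart in GRCm38 with 0 annotated genes between them, and in 5C-Oct4GFP+ cells they stood at 831 and 4.07 TPM. Igfbp3 (ENSMUSG00000020427, chr11:7206086-7213923, minus strand) lies 3539 bases from Igfbp1, a liver and decidual binding protein. Igfbp1 was at 5.15 TPM in mES-Oct4GFP- cells, the library with the highest Igfbp3, at 0.32 TPM in 5C-Oct4GFP- cells and without counts in the other 5. The other members are Igfbp4 (chr11:99041244-99054392), Igfbp6 (chr15:102144362-102149511), Igfbp7 (chr5:77349240-77408041), Igf1 (chr10:87858265-87937042) and Igf1r (chr7:67952827-68233668).

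Among the other ligands, Igf2, the fetal IGF, was the abundant one. It was at 972 TPM in mES-Oct4GFP-, 129 TPM in R1 ESCs-primed, 95 TPM in 5C-Oct4GFP- cells and 64.4 TPM in 5C-Oct4GFP+ (primed) cells, and at 5.94, 1.4 and 1.35 TPM in 5C-Oct4GFP+, 5C-Oct4GFP+ (naive) and mES-Oct4GFP+ cells. Igfbp4 had the same order of libraries. Ins1 and Ins2, the insulin genes, had no counts in any library. Of the other receptors, Igf2r ran from 23.3 TPM in 5C-Oct4GFP+ to 129 TPM in mES-Oct4GFP- cells, and Insr, the insulin receptor, from 1.37 TPM in 5C-Oct4GFP+ (naive) to 21.3 TPM in mES-Oct4GFP- cells. Igf1r was above Insr in every library in TPM.

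The proteases that free IGFs from the binding proteins included Htra1, which was high in 5C-Oct4GFP+ and mES-Oct4GFP- cells. Htra1 was at 165 TPM in 5C-Oct4GFP+, 161 TPM in mES-Oct4GFP- and 91.3 TPM in 5C-Oct4GFP- cells, at 21.1 and 25.5 TPM in mES-Oct4GFP+ and 5C-Oct4GFP+ (naive) cells, and at 6.53 and 16.3 TPM in the 5C-Oct4GFP+ (primed) and R1 ESCs-primed libraries. Pappa, which cuts Igfbp4, did not pass 2.77 TPM. Stc2, an inhibitor of that protease, was at 14.2 TPM in 5C-Oct4GFP+ against 2.33 TPM in mES-Oct4GFP+ cells. Of the 10 listed proteins that share the amino-terminal IGFBP domain, the matricellular Ccn1 and Ccn2 were the abundant ones, with Ccn1 at 304 TPM in 5C-Oct4GFP+ against 15.2 TPM in mES-Oct4GFP+ cells and Ccn2 at 178 against 27.9 TPM.

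Downstream of the receptor, 5 of 7 adaptors were lower and 1 higher in mES-Oct4GFP+ than in mES-Oct4GFP- cells, where 28.8% of all genes were lower and 17.9% higher. Grb10, an inhibitory adaptor, was at 688 TPM in mES-Oct4GFP- cells, 302 TPM in 5C-Oct4GFP+ (primed), 294 TPM in 5C-Oct4GFP-, 125 TPM in 5C-Oct4GFP+ cells and 101 TPM in R1 ESCs-primed cells, and at 15.8 and 9.11 TPM in mES-Oct4GFP+ and 5C-Oct4GFP+ (naive) cells. Irs2, an activating adaptor, was at 12.6 TPM in 5C-Oct4GFP+ against 3.04 TPM in mES-Oct4GFP+ cells. Gab1 went the other way, at 89.9 TPM in mES-Oct4GFP+ and 23.4 TPM in mES-Oct4GFP- cells. Of the 17 PI3K, AKT and mTOR genes, 0 were called between 5C-Oct4GFP- and mES-Oct4GFP- cells, where 9.68% of all genes were higher and 10.1% lower. In mES-Oct4GFP+ relative to mES-Oct4GFP- cells 4 were lower, among them Akt1 (24.0 against 160 TPM), a share near the 28.8% of all genes. There 0 were higher, against 17.9% of all genes.

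Over the 50 listed pathway genes that are not members, 34 reached 1 TPM in the comparison of 5C-Oct4GFP+ with mES-Oct4GFP+ cells, 13 of them higher and 0 lower (all genes 13.7% and 13.5%). Between mES-Oct4GFP+ and mES-Oct4GFP- cells 43 reached it, 26 of them lower and 1, Gab1, higher (all genes 28.8% and 17.9%). Between 5C-Oct4GFP+ (naive) and 5C-Oct4GFP+ cells 14 of 34 were lower and 0 higher (all genes 17.5% and 10%), and between 5C-Oct4GFP+ (primed) and 5C-Oct4GFP+ cells 6 of 38 were higher and 6 lower, near the 13.7% and 16.1% of all genes. Their median differences were 0.61, -1.63, -0.79 and 0.17 on the log2 scale, beside -0.06, -0.15, -0.1 and 0.06 over all genes tested.

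The genes whose profile over the 7 libraries was most like each member were sought among 11804 genes that reached 10 TPM in any library, by Pearson's r of log2(TPM + 1), as a description without a test. Igfbp2 was closest to Glul (glutamine synthetase, r = 0.996), Fndc4 and Fah. Igfbp3 was closest to Cdc42, Sema3e and Pga5, Igfbp4 to Cpe (carboxypeptidase E), Man1a and Dnm1, and Igfbp5 to 3110039I08Rik, the imprinted cell-cycle inhibitor Cdkn1c and Zfhx4. Igfbp6 was closest to Inafm1, Acsbg1 and Thsd4, Igfbp7 to Slc4a3, Gm16505 and Rbck1, Igf1 to Nfic, Tbx15 and Irf2bp1, and Igf1r to Sidt2, Tdrd7 and Jak1. With 7 points such values come easily, and 370 genes passed r = 0.95 with Igf1r, 297 with Igfbp6, 118 with Igfbp3 and 86 with Igfbp2. The profiles of Igfbp7 and Igfbp5 had fewer such companions, 18 and 26 genes.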

How the data were processed

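RNA of 7 mouse cell populations, 1 library each, was sequenced after TruSeq mRNA preparation. Per the submitters' processing notes and the study's methods, the authors aligned reads with Bowtie to transcripts of mm10 and estimated abundances with RSEM. For each gene they deposited expected counts (estimated counts, not normalized, not always whole), TPM and FPKM, with gene length and effective length. Versions are not given in the sources used here.

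Ensembl identifiers were paired with symbols for 28756 of 29267 genes. Differences were taken on log2(TPM + 1). With 1 library per population no model was fitted, and no p-value is given. Intervals came from rounded expected counts, scaled by library and effective length (Python 3.11.15, scipy 1.17.1). Coordinates are GENCODE M21 (GRCm38), and promoters RefSeq (GRCm38.p6), found for all 8 members. The members, comparisons and lists were chosen with earlier results of these data known. Named genes were all members, listed pathway genes at least 2-fold apart, and the 3 genes most like each member; Ins1, Ins2, Igfbp1, Pappa and single markers were named beside them after their values were seen. Some listed genes are counted but not reported singly here. The interval calculation and calls were tested on simulated data.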

Additional observations from a re-analysis of the deposited data

Results flagged for a closer look

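For 3 members, 2 effects of the same kind had opposite signs, each with a counting interval that leaves out a ratio of 1. With 1 library per population, the difference between the effects was not tested. Igfbp4 was higher in 5C than in mES medium among Oct4GFP+ cells (1.17 on the log2 scale) and lower among Oct4GFP- cells (-2.23), 3.41 apart. Igf1r did the same (0.55 and -1.01, 1.55 apart). In conversion of 5C-Oct4GFP+ cells, Igfbp4 was lower in naïve medium (-0.93) and higher in primed medium (2.04), a gap of -2.98. Igfbp5 (-1.02 and 0.64, a gap of -1.66) and Igf1r (-1.06 and 0.25, a gap of -1.31) moved alike, and these conversion values share the 5C-Oct4GFP+ library. The sign of Igf1r in primed medium rests on a narrow margin. Its ratio had an interval of 1.003 to 1.46, and median-ratio rescaling took its log2 difference from 0.25 to 0.20. The fibroblast markers, as mean log2(TPM + 1), were at 1.15 in 5C-Oct4GFP+, 1.18 in 5C-Oct4GFP+ (naive) and 2.81 in 5C-Oct4GFP+ (primed) cells. The primitive endoderm markers summed to 3.4, 4.74 and 103 TPM in the same libraries. The part of either list was not tested.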

How the results depend on the processing

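The 64 differences of single members were recomputed with a pseudocount of 0.1, FPKM, CPM without length, and median-ratio rescaling. Of these, 62, 62, 61 and 62 moved by less than their counting interval, and 0 of those at least 2-fold apart changed sign. The number of members at least 2-fold apart between 5C-Oct4GFP+ and mES-Oct4GFP+ cells was 4, but 2 with FPKM and 2 with a minimum of 5 TPM, and between 5C-Oct4GFP+ (naive) and 5C-Oct4GFP+ cells it was 4, but 2 with FPKM. With the pseudocount held at 1, FPKM values, which are smaller than TPM, pull low genes together. The other counts stayed within 1.5 times under every setting, a 1.5-fold limit included. Rescaling shifted all log2 differences by 0.16 between 5C-Oct4GFP+ and 5C-Oct4GFP- cells and by -0.13 between 5C-Oct4GFP+ (primed) and 5C-Oct4GFP+ (naive) cells, and by less than 0.1 elsewhere. By Spearman's rho, 0 of the 3 genes most like Igfbp2, Igfbp5 or Igfbp6 stayed in the top places. The share of all genes apart between the primed libraries was 12.6% with a pseudocount of 0.1 and 4.85% with a minimum of 5 TPM. No paired analysis was possible because each population has 1 library, and leaving out a replicate was not possible for the same reason. Depth limits Igf1 and Igfbp6, which had 10 or fewer counts in 5 of 7 libraries each.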
